A study of Mus musculus with 6 samples.

Results

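The oligodendrocyte lineage was followed in dentate neuroepithelium through 9 genes that mark its course from precursor to myelin, out of 35274 rows of the expression table. These rows were taken by symbol, and each symbol had 1 row. Olig1, Olig2, Sox10, Pdgfra and Cspg4 are the 5 precursor genes, and Cnp, Mbp, Mag and Mog the 4 myelin genes. All 9 passed the filter of a mean of at least 1 TPM (relative transcript abundance, adjusted for length, with a fixed sum per library), as did 14518 genes in all. Dentate neuroepithelium is the strip of ventricular wall that builds the dentate gyrus of the hippocampus, and the tissue was labelled embryonic day 14. Its 6 libraries were 2 of wild type mice, 2 of mice labelled SOX11f/+ and haplodeficient, and 2 of mice labelled SOX11f/f and homodeficient. The floxed allele allows Sox11, a transcription factor gene of newborn neurons, to be removed by Cre. Neither a Cre driver nor a strain is named in the labels. They do not state either that each library is a separate embryo or litter, so a p-value reflects only how libraries vary, which may be technical.

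Oligodendrocytes wrap axons of the central nervous system in myelin. Their precursors are specified by the basic helix-loop-helix factor Olig2, divide in response to PDGF through the receptor Pdgfra, and carry the proteoglycan NG2 on their surface. On leaving the cell cycle they pass through a premyelinating stage and then switch on myelin genes under Sox10 and Myrf, a step that in the mouse forebrain is known mainly from after birth.

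Sox11 followed the labels, at 161 ± 43.7 TPM in wild type libraries, 53.1 ± 4.26 TPM in SOX11f/+ and 5.14 ± 0.120 TPM in SOX11f/f libraries (SD, n = 2 each). The log2 fold change of Sox11 against wild type was -1.56 in SOX11f/+ (SE 0.19, limma adjusted p = 0.105), which did not pass. In SOX11f/f it was -4.69 (SE 0.19, limma adjusted p = 0.00082), which passed. The 8 listed genes of neural progenitors, among them Sox2, Pax6 and Nes, summed to 799 to 1142 TPM. Markers of mature neurons and astrocytes were present in all 6 libraries as well, with summed levels of 658 to 1533 TPM over 8 neuronal genes and 1897 to 3885 TPM over 10 astrocyte genes, and Gfap of mature astrocytes reached 268 to 576 TPM in tissue labelled embryonic day 14. Libraries differed most in choroid plexus RNA, whose 7 listed genes, led by Ttr, summed to 11567 TPM in SOX11f/+ replicate 1, 6622 TPM in SOX11f/f replicate 1, 208 TPM in SOX11f/f replicate 2 and 4.71 to 12.1 TPM in the other 3.

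The lineage genes lie on 8 chromosomes, and 2 of them are neighbours. On GRCm38, Olig2 (ENSMUSG00000039830.8) spans chromosome 16 from 91225457 to 91228677 and Olig1 (ENSMUSG00000046160.6) follows on the same plus strand from 91269772 to 91271933, with 41094 bases between them. Sox10 (ENSMUSG00000033006.9) covers 79154908 to 79165240 of chromosome 15 (minus strand), Pdgfra (ENSMUSG00000029231.15) lies on chromosome 5 from 75152292 to 75198215 and Cspg4 (ENSMUSG00000032911.6) on chromosome 9 from 56865033 to 56899870. Of the myelin genes, Cnp (ENSMUSG00000006782.16) is on chromosome 11 from 100574904 to 100591729, Mbp (ENSMUSG00000041607.16) on chromosome 18 from 82475146 to 82585637, Mag (ENSMUSG00000036634.15) on chromosome 7 from 30899176 to 30914873 and Mog (ENSMUSG00000076439.12) on chromosome 17 from 37010743 to 37023398. Whether reads were counted by strand is not given in the sources used here. Cnp shares 154 of its 3639 exon bases with Dnajc7 on the other strand, and Olig1 shares 157 of 2162 with the antisense gene Gm15966, which is not analysed here. Pdgfra matches the antisense gene Gm42802 over 344 bases at 99.7% identity. Dnajc7 stood at 222 and 199 TPM in the wild type pair and at 169 to 196 TPM in the 4 floxed libraries, thus lower where Cnp was higher.

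Promoter sequence is shown for 4 genes: Olig2, Pdgfra and Cnp, which were higher in every floxed library than in wild type, and Mog, which was lower. Each line holds the 250 bases before the RefSeq start on GRCm38.p6, read 5′ to 3′ on the gene's strand (Olig2 chr16:91225300-91225549, plus; Pdgfra chr5:75152001-75152250, plus; Cnp chr11:100574689-100574938, plus; Mog chr17:37023399-37023648, minus). Capitals mark the letters ACAAAG and ACAAT, cores bound by SOX proteins, and the E-box CANNTG of helix-loop-helix proteins, on either strand.

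Olig2: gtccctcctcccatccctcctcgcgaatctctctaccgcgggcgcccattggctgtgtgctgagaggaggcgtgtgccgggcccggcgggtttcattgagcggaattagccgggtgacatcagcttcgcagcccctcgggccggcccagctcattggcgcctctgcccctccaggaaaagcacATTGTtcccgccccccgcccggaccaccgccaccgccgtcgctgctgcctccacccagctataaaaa
Pdgfra: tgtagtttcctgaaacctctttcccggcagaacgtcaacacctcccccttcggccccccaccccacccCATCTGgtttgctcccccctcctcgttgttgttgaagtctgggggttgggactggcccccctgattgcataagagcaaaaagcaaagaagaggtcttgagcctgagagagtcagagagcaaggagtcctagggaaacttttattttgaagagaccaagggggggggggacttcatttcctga
Cnp: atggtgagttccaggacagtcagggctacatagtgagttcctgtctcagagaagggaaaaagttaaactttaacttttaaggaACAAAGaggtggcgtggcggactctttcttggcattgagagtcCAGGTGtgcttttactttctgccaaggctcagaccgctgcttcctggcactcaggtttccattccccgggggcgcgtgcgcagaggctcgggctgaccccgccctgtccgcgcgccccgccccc
Mog: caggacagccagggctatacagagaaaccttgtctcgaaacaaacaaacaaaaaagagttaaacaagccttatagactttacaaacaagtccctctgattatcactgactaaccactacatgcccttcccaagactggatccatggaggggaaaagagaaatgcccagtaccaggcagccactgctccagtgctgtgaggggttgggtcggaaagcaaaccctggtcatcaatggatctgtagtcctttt

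The Olig2 window held 1 ACAAT match and no E-box, the Pdgfra window 1 E-box, and the Cnp window 1 ACAAAG and 1 E-box. The Mog window held 0 matches of any of the 3. Among 32851 windows of the same length, 16.5% held ACAAAG, 27.7% ACAAT and 66.2% an E-box, and a match is only a description of the letters. Olig2 had 22 CpG and 66.8% GC in its window, against 2 CpG and 46.8% GC for Mog and medians of 6 CpG and 52.4% GC over all windows. GENCODE places the starts of Olig2 and Cnp further upstream, inside the windows shown. Promoter windows were examined for 6 of the 9 genes.

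Olig1 was the most abundant of the 9 transcripts and Mag and Mog the scarcest. On the TPM scale, which is corrected for length, Olig1 came first at 142 ± 37.2 TPM (SD, n = 6 libraries of 3 genotypes), above Olig2, the next gene, in all 6 libraries without overlap. Olig2 at 40.6 ± 8.85, Cnp at 40.5 ± 15.8, Pdgfra at 35.8 ± 8.76 and Mbp at 30.6 ± 23.7 TPM came next, and neighbours in this order did not differ beyond their spread. Sox10 at 13.8 ± 3.65 TPM and Cspg4 at 11.6 ± 1.68 TPM also overlapped. A gap followed to Mag at 2.21 ± 2.19 TPM and Mog at 1.33 ± 0.559 TPM, the latter close to the filter. The spread over libraries was narrowest for Cspg4, at 14.5% of its mean, and widest for Mag and Mbp, at 99.4% and 77.5%.

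**Figure D1:**
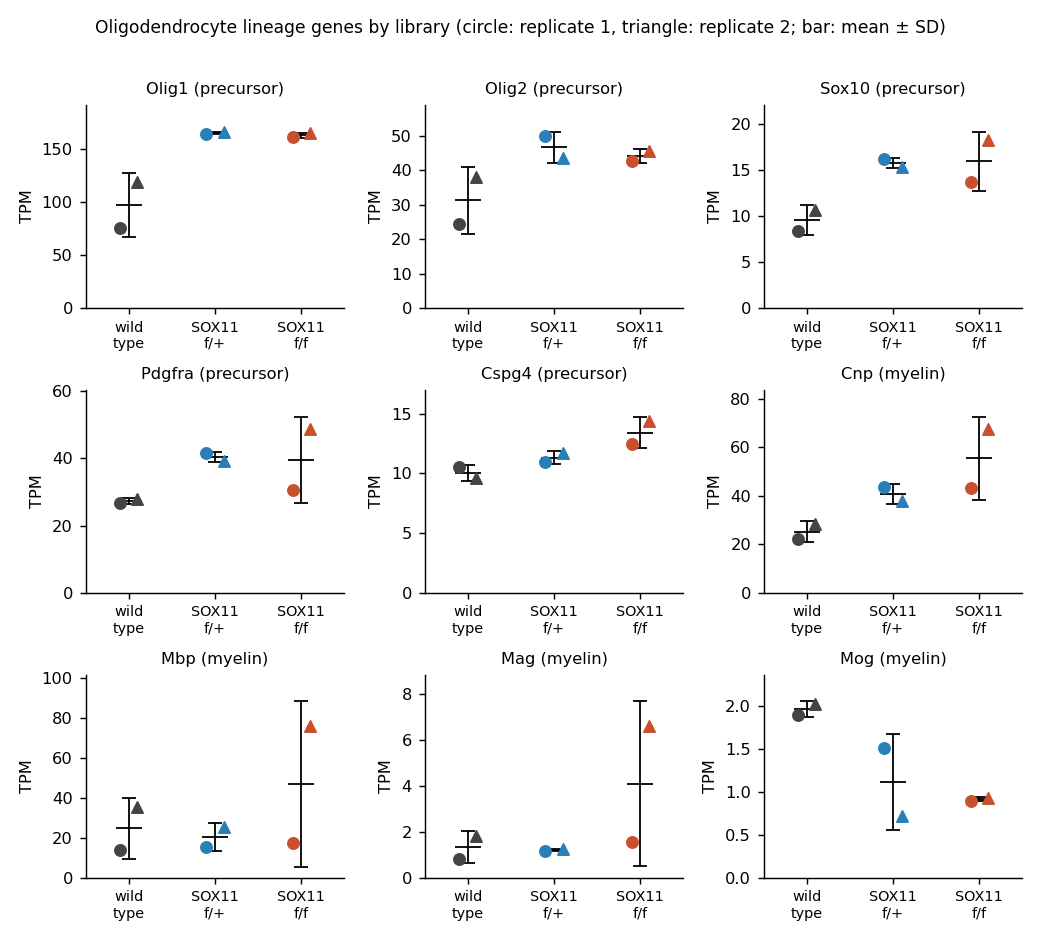
TPM (vertical axes) of the 9 lineage genes in each library, by genotype (horizontal axes), with circles for replicate 1, triangles for replicate 2 and black bars for the mean ± SD of 2 libraries. The 5 precursor genes and Cnp lie higher in all 4 floxed libraries than in wild type, Mog lies lower, and Mbp and Mag are highest in SOX11f/f replicate 2.

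The transcription factors were compared first. Olig1, which supports differentiation and myelination, stood at 75.8 and 119 TPM in wild type libraries, at 165 and 166 TPM in SOX11f/+ and at 161 and 165 TPM in SOX11f/f libraries. Wild type libraries differed from each other by more than the 4 floxed libraries did, and no floxed value reached down to them. The log2 fold change of Olig1 was 0.80 (SE 0.19, limma adjusted p = 0.238) in SOX11f/+ and 0.77 (SE 0.19, limma adjusted p = 0.131) in SOX11f/f against wild type, so neither passed. Without wild type replicate 1 they were 0.47 and 0.45. Olig2 stood at 24.4 and 38.04 TPM in wild type libraries, 49.8 and 43.4 TPM in SOX11f/+, and 42.6 and 45.6 TPM in SOX11f/f libraries. It too lay higher in each floxed library, by 0.59 and 0.52 on the log2 scale (SE 0.20 each, limma adjusted p = 0.316 and 0.256), which became 0.28 and 0.21 without wild type replicate 1 and 0.90 and 0.83 without wild type replicate 2. Olig1 exceeded Olig2 by a ratio of 3.11 and 3.13 in the wild type libraries and of 3.31 to 3.83 in the floxed ones. Across the 6 libraries these neighbouring genes had a Pearson r of 0.97 on the log2 scale, a description over points that share genotype and tissue dissection.

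Sox10, an HMG-box factor that carries precursors into myelination, stood at 8.42 and 10.7 TPM in wild type. It was at 16.2 and 15.4 TPM in SOX11f/+ and at 13.7 and 18.3 TPM in SOX11f/f libraries. The floxed libraries again lay higher without overlap, with log2 fold changes of 0.68 in both comparisons (SE 0.19 each, limma adjusted p = 0.281 and 0.160). Sox10 and Cnp are also made by Schwann cells, whose 11 listed genes summed to 29.1 and 33.7 TPM in the wild type pair and 45.8 to 65.9 TPM in floxed libraries. Of the 11, Foxd3 was listed at 0 in all 6 libraries and 5 passed the filter. Of these 5, 1 (Pmp22) was higher in all 4 floxed libraries than in wild type, as were 13.3% of all genes. Below the filter, Erbb3 was higher too (0.30 and 0.29 TPM, then 0.43 to 0.87), while Dhh was lower (0.33 and 0.62 TPM, then 0.07 to 0.30). Prx overlapped, at 1.58 to 2.28 TPM, and the part of Schwann cells in the Sox10 and Cnp values was not tested.

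Both surface genes of precursors were compared next. Pdgfra, the PDGF-A receptor, stood at 26.8 and 27.9 TPM in wild type libraries, 41.5 and 39.3 TPM in SOX11f/+, and 30.5 and 48.7 TPM in SOX11f/f libraries. Both SOX11f/+ libraries were clear of wild type, whereas SOX11f/f replicate 1 lay just above it. Its log2 fold changes were 0.55 and 0.48 (SE 0.21 each, limma adjusted p = 0.331 and 0.285). The second was 0.15 without SOX11f/f replicate 2 and 0.81 without SOX11f/f replicate 1. Cspg4, the gene of NG2, stood at 10.5 and 9.58 TPM in wild type libraries, 10.9 and 11.7 TPM in SOX11f/+, and 12.5 and 14.4 TPM in SOX11f/f libraries. The genotypes did not overlap, yet the lowest floxed library exceeded the highest wild type library by less than wild type libraries differed. Fold changes of Cspg4 were 0.16 and 0.38 on the log2 scale (SE 0.16 each, limma adjusted p = 0.654 and 0.267), and the first was 0.094 without wild type replicate 2.

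Fibroblasts also express Pdgfra, and pericytes Cspg4. The 11 fibroblast and meningeal genes, such as Col1a1, Col1a2 and Col3a1, summed to 302 and 126 TPM in wild type libraries, 282 and 223 TPM in SOX11f/+, and 108 and 592 TPM in SOX11f/f libraries. The 10 pericyte genes, with Pdgfrb, Rgs5 and Kcnj8, summed to 250 and 163 TPM, 179 and 219 TPM, and 134 and 292 TPM in the same order. Both lists were lowest in SOX11f/f replicate 1 and highest in SOX11f/f replicate 2, the libraries with the lowest and highest floxed Pdgfra, and their part in the Pdgfra values was not tested.

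Of the 4 myelin genes, Cnp alone was higher in all 4 floxed libraries. Cnp, a cyclic nucleotide phosphodiesterase of non-compact myelin that already appears in precursors, stood at 22.3 and 28.2 TPM in wild type libraries, 43.7 and 37.9 TPM in SOX11f/+, and 43.4 and 67.6 TPM in SOX11f/f libraries. Its log2 fold changes were 0.68 (SE 0.22, limma adjusted p = 0.309) and 1.08 (SE 0.22, limma adjusted p = 0.105). The SOX11f/f mean was 2.20 times the wild type mean, and leaving out SOX11f/f replicate 2 gave a log2 fold change of 0.77.

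Mbp and Mag differed widely between replicates and were highest in SOX11f/f replicate 2. Mbp, the protein that compacts the myelin membrane, stood at 13.9 and 35.7 TPM in wild type libraries, 15.3 and 25.2 TPM in SOX11f/+, and 17.5 and 76.2 TPM in SOX11f/f libraries. The genotypes overlapped, and replicates of each differed more than the genotype means of wild type and SOX11f/+ did. Its log2 fold changes against wild type were -0.18 and 0.69 (SE 0.70 each, limma adjusted p = 0.924 and 0.610), and neither passed. The second was -0.34 without SOX11f/f replicate 2, 1.72 without SOX11f/f replicate 1, 0.043 without wild type replicate 1 and 1.34 without wild type replicate 2. The SOX11f/+ difference of Mbp was -0.83 and 0.47 without wild type replicate 1 and 2, and 0.17 and -0.52 without SOX11f/+ replicate 1 and 2. The Mbp gene also gives Golli transcripts from an upstream start, which neurons and immune cells make, and a gene-level TPM sums all of them.

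Mag, an adhesion molecule of the myelin layer next to the axon, stood at 0.83 and 1.83 TPM in wild type libraries, 1.17 and 1.23 TPM in SOX11f/+, and 1.55 and 6.63 TPM in SOX11f/f libraries. Only SOX11f/f replicate 2 stood far from the rest, and its fold changes were -0.05 and 0.95 (SE 0.52 each, limma adjusted p = 0.976 and 0.366). The second was 0.16 without SOX11f/f replicate 2 and 1.75 without SOX11f/f replicate 1. Mog, which sits on the outer face of finished myelin, went the other way, at 1.90 and 2.03 TPM in wild type libraries, 1.51 and 0.72 TPM in SOX11f/+, and 0.90 and 0.93 TPM in SOX11f/f libraries. All 4 floxed libraries lay below wild type, by 0.51 and 0.63 on a log2 scale that understates changes of so low a gene (SE 0.28 each, limma adjusted p = 0.451 and 0.302). The SOX11f/+ difference of Mog was -0.24 without SOX11f/+ replicate 2 and -0.79 without SOX11f/+ replicate 1. SOX11f/f replicate 2, the highest library for Cnp, Mbp and Mag, was thus among the low ones for Mog.

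**Figure D2:**
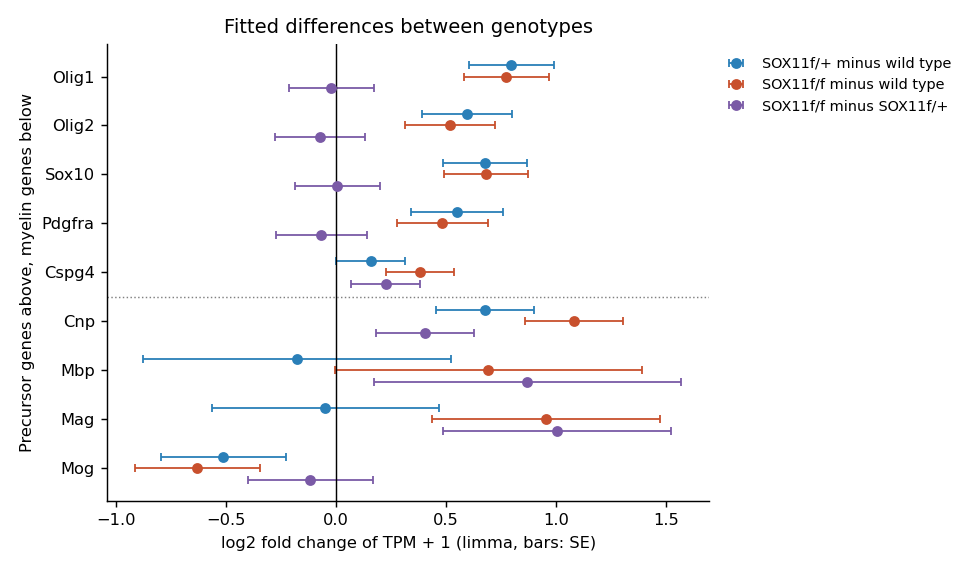
Log2 fold changes of TPM + 1 (horizontal axis) with limma's SE for the 9 genes (vertical axis) in the 3 comparisons of genotypes. Precursor genes and Cnp lie right of 0 in both comparisons with wild type and Mog left of 0, the bars of Mbp and Mag are the longest, and no value passed the threshold.

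Counted together, 0 of 9 lineage genes were called at a limma adjusted p of 0.05 in any comparison. Sox11 itself was not called in SOX11f/+ against wild type (limma adjusted p = 0.105). A lack of calls in that comparison therefore does not show a lack of change. Calls were rare over all genes too, at 0.0344% in SOX11f/+ against wild type, 0.0413% in SOX11f/f against wild type and 0.0138% in SOX11f/f against SOX11f/+. An unadjusted limma p under 0.05 with a higher level was found for 5 of 9 genes in SOX11f/+ (Olig1, Olig2, Sox10, Pdgfra and Cnp), where 6.42% of all genes met it. In SOX11f/f it was found for 5 of 9 (Olig1, Olig2, Sox10, Cspg4 and Cnp), where 8.35% of all genes met it. Non-overlapping libraries with higher floxed values were found for 6 of 9 genes in SOX11f/+ and in SOX11f/f, against 17.1% and 23.6% of all genes. These comparisons share the wild type libraries. All 4 floxed libraries lay above both wild type libraries for the 5 precursor genes and Cnp, against 13.3% of all genes, and below them for Mog, against 21.0%. An exact permutation test of 2 against 4 libraries cannot give a p below 0.067, and the genes vary together, so the count of 6 is not 6 separate results.

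Over the 5 precursor genes the median of log2 fold changes against wild type was 0.59 in SOX11f/+ and 0.52 in SOX11f/f, beside medians of -0.06 and -0.04 over all 14518 genes. The 4 myelin genes had medians of -0.11 and 0.82. Without SOX11f/f replicate 2, the SOX11f/f values of Cnp, Mbp and Mag fell to 0.77, -0.34 and 0.16, and Mog stayed below 0. Between the floxed genotypes 0 of 9 genes had an unadjusted p under 0.05. Cspg4 and Mag were higher in both SOX11f/f libraries than in both SOX11f/+ libraries, 2 of 9 where 15.3% of all genes were. Differences of Olig1, Olig2, Sox10 and Pdgfra between floxed genotypes lay between -0.08 and 0.01 on the log2 scale, with SE of 0.19 to 0.21.

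Leaving out SOX11f/+ replicate 1 and SOX11f/f replicate 1, the libraries richest in Ttr, left each floxed genotype represented by replicate 2 alone. Such a library is assumed to vary as the wild type pair does, so only effect sizes are given. Log2 fold changes in SOX11f/f against wild type then included 1.39 for Cnp, 1.72 for Mbp and 1.75 for Mag. Those of precursor genes included 0.79 for Olig1, 0.88 for Sox10, 0.81 for Pdgfra and 0.48 for Cspg4. Olig2 was again higher than wild type and Mog again lower. The log2 fold change of Mag in SOX11f/f against SOX11f/+ was 1.77.

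Precursor and myelin genes were then compared within each library by the difference of their mean log2(TPM + 1). The precursor mean exceeded the myelin mean by 1.78 and 1.51 in wild type, 2.24 and 2.19 in SOX11f/+, and 2.09 and 1.29 in SOX11f/f libraries. SOX11f/+ replicates and SOX11f/f replicate 1 thus had a wider gap than wild type, and SOX11f/f replicate 2 a narrower one. In SOX11f/+ the gap was 2.22 ± 0.0303, against 1.65 ± 0.196 in wild type and 1.69 ± 0.567 in SOX11f/f libraries (SD, n = 2 each). The precursor mean was 4.65 ± 0.214, 5.20 ± 0.0339 and 5.22 ± 0.193 and the myelin mean 3.0 ± 0.409, 2.99 ± 0.00362 and 3.53 ± 0.759 in wild type, SOX11f/+ and SOX11f/f. The precursor mean of every floxed library lay above wild type, while the myelin mean of 3 of 4 floxed libraries was 2.98 or 2.99 and lay between the wild type values of 2.71 and 3.29. No test was made of these means.

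**Figure D3:**
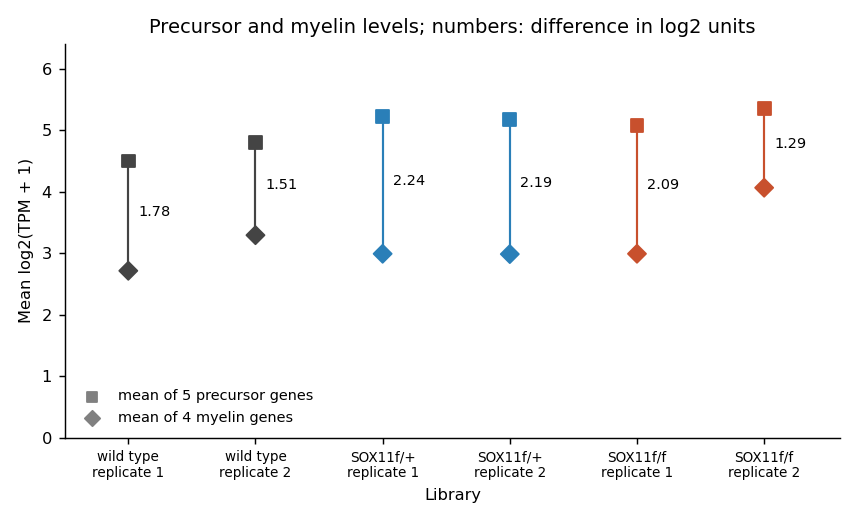
Mean log2(TPM + 1) (vertical axis) of the 5 precursor genes (squares) and the 4 myelin genes (diamonds) in each library (horizontal axis), with the difference printed beside each line. The squares of all 4 floxed libraries lie above those of wild type, from 5.08 to 5.35 against 4.50 and 4.80, and the diamond of SOX11f/f replicate 2 stands at 4.06 where the other 5 lie between 2.71 and 3.29.

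Correlations between lineage genes over the libraries did not divide by stage. On the log2 scale Mbp and Mag had a Pearson r of 0.93 over 6 libraries, Olig1 with Sox10 0.94 and Sox10 with Cnp 0.94, while Olig1 had 0.35 with Mbp and -0.74 with Mog. Within the precursor genes Olig2 had 0.43 with Cspg4, and within the myelin genes Mog had -0.27 with Mbp and -0.34 with Mag. These are descriptions, since the libraries share genotypes and SOX11f/f replicate 2 weighs on each. By the naming rule, Pcbd1, Gmpr, Fitm2, Ss18l2 and Igsf1 were most like the precursor mean among 11460 other genes with at least 5 TPM (r from 0.979 to 0.987, n = 6 libraries). Slc4a8, Ppp1r7, Pitpnm2, Dhrs7 and Maml2 were most like the myelin mean (r from 0.955 to 0.963, n = 6 libraries).

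Of 19 further precursor genes 16 were tested and 0 were called in any comparison. All 4 floxed libraries exceeded wild type for 2 of 16, Ptprz1, a receptor phosphatase (126 and 156 TPM in wild type libraries, 162 to 183 in floxed libraries), and Lhfpl3 (17.6 and 19.7 TPM, then 21.4 to 29.3). They lay below it for Vcan, the gene of versican, and for the zinc-finger gene Myt1, 2 of 16. Neither count exceeds the share of all genes, 13.3% above and 21.0% below. Vcan stood at 52.4 and 43.8 TPM in wild type libraries, 39.1 and 36.3 TPM in SOX11f/+, and 27.1 and 28.6 TPM in SOX11f/f libraries, so the 3 genotypes did not overlap and SOX11f/f was lowest. Its log2 fold change in SOX11f/f was -0.76 (SE 0.13, limma adjusted p = 0.070). This value passed with the replicate block (limma adjusted p = 0.044) and with no SOX11f/+ library in the test (0.042). It did not pass with a pseudocount of 0.1, a changed filter, rescaling or no trend (limma adjusted p from 0.051 to 0.171). Without wild type replicate 1 the log2 fold change of Vcan was -0.64. The median over the 16 was 0.05 in SOX11f/+ and 0.32 in SOX11f/f against wild type.

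Gpr17, Bcas1 and Nkx2-2 were highest in SOX11f/f replicate 2, as were 9 of the 16 genes, whereas Zfp488 and Tnr were highest in wild type replicate 1. Gpr17, a receptor of committed precursors, stood at 8.45 and 13.3 TPM in wild type libraries, 13.1 and 14.5 TPM in SOX11f/+, and 12.7 and 25.04 TPM in SOX11f/f libraries. Bcas1, a marker of cells that begin to myelinate, stood at 5.06 and 10.7 TPM, 10.4 and 11.8 TPM, and 13.3 and 32.4 TPM in the same order. Only the last of these Bcas1 values lay far above the rest, and its SOX11f/f fold change was 1.37 (SE 0.45, limma adjusted p = 0.195), or 0.76 without that library. Nkx2-2, a homeobox factor of the lineage, was at 2.35 and 2.93 TPM in wild type libraries, at 2.34 and 4.0 TPM in SOX11f/+ and at 4.59 and 6.24 TPM in SOX11f/f libraries (0.81, SE 0.28, limma adjusted p = 0.212).

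Of 23 further myelin genes 15 were tested, 0 were called, and the 8 untested ones stayed at or below 1.24 TPM. Among the latter, the late genes Mobp, Opalin and Hapln2 lay between 0 and 0.74 TPM in every library. Myrf, the factor that turns on myelin genes, reached 2.82 TPM in SOX11f/f replicate 2 and lay between 0.60 and 1.44 TPM elsewhere. That library was the highest of 6 for 10 of the 15 genes and for 6 of the 9 lineage genes, against 17.4% of all genes. Cldn11, a tight-junction protein of myelin that meningeal cells make as well, followed at 23.8 TPM there and 2.48 to 8.89 TPM elsewhere.

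Pllp and Tspan2 did not overlap between wild type and floxed libraries. Pllp, the gene of plasmolipin, stood at 5.00 and 5.32 TPM in wild type libraries, 8.21 and 8.58 TPM in SOX11f/+, and 8.64 and 12.7 TPM in SOX11f/f libraries (0.90 in SOX11f/f, SE 0.21, limma adjusted p = 0.120). Tspan2, a tetraspanin, was at 9.0 and 9.41 TPM in wild type libraries, 10.02 and 11.7 TPM in SOX11f/+, and 12.9 and 13.8 TPM in SOX11f/f libraries (0.49, SE 0.16, limma adjusted p = 0.188). Pllp and Tspan2 were the 2 of 15 genes above wild type in all 4 floxed libraries, and S1pr5 was the 1 below, shares that do not exceed the 13.3% and 21.0% of all genes. For Gpr37, an orphan receptor, and Aspa, which splits N-acetylaspartate, the SOX11f/f libraries alone were clear of wild type (0.82 and 0.60, limma adjusted p = 0.197 and 0.327). The median over the 15 was 0.08 in SOX11f/+ and 0.44 in SOX11f/f.

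**Figure D4:**
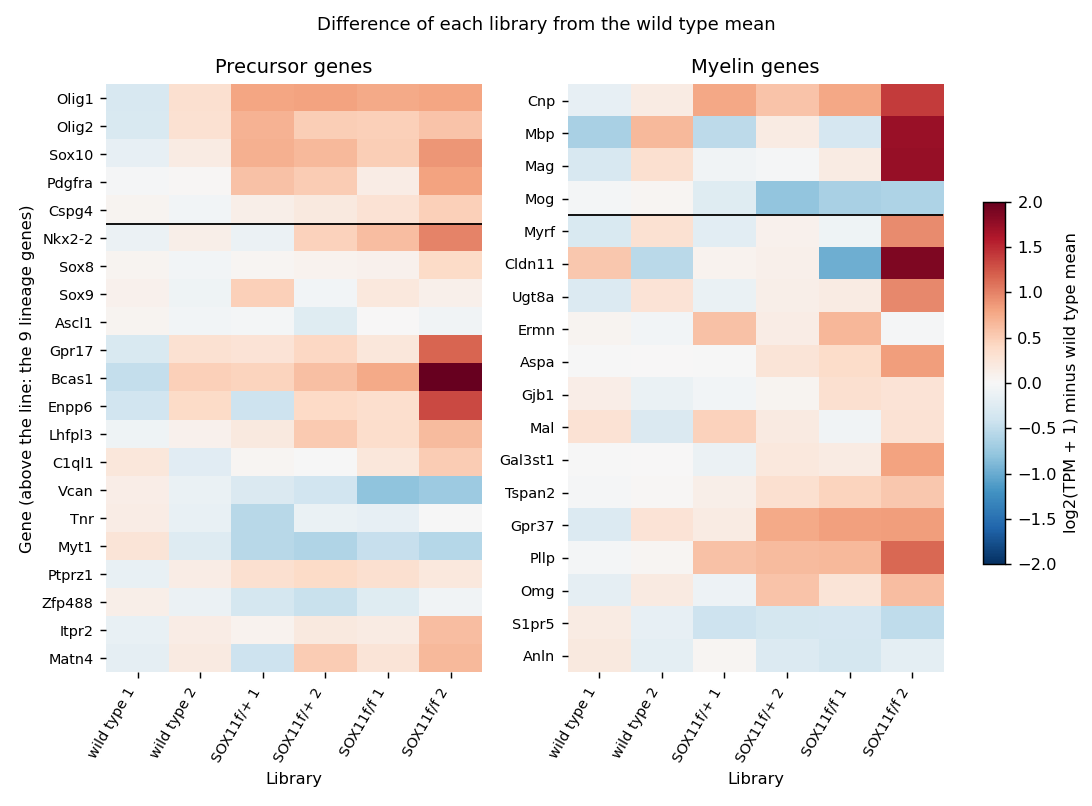
Difference of log2(TPM + 1) from the wild type mean (colour) for tested precursor genes (left panel) and most of the tested myelin genes (right panel) in each library (horizontal axes), with the 9 lineage genes above the black lines. Olig1, Olig2 and Sox10 are higher than wild type in all 4 floxed columns, whereas Mbp, Mag and Bcas1 are darkest in the last column, SOX11f/f replicate 2.

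Signals that reach the lineage had mixed directions, with 19 of 21 listed genes tested and 0 called. Medians were 0.04 in both comparisons with wild type. All 4 floxed libraries lay above wild type for 3 of 19 and below it for 2 of 19, beside 13.3% and 21.0% of all genes. Pdgfa, the ligand of Pdgfra, stood at 31.1 and 30.6 TPM in the wild type pair and 30.1 to 42.3 TPM in floxed libraries. Hes1, a Notch effector, lay higher in all 4 floxed libraries (9.07 and 8.72 TPM, then 11.7 to 13.6). Cxcr4, a chemokine receptor used by migrating precursors and neurons, was lower (174 and 124 TPM, then 93.8 to 110). Id4, an inhibitor of helix-loop-helix factors, stood at 40.6 and 31.6 TPM in wild type libraries, 59.6 and 37.7 TPM in SOX11f/+, and 54.3 and 58.7 TPM in SOX11f/f libraries, so SOX11f/+ overlapped wild type. Bmp4, a signal that turns precursors away from oligodendrocytes, stood at 0.86 and 1.18 TPM in wild type libraries, 5.67 and 0.97 TPM in SOX11f/+, and 5.61 and 5.62 TPM in SOX11f/f libraries. Its SOX11f/f fold change of 1.72 (SE 0.53, limma adjusted p = 0.178) passed with no SOX11f/+ library in the test (0.016). It did not pass with a pseudocount of 0.1, no filter, rescaling, the replicate block or no trend (limma adjusted p from 0.124 to 0.294). Bmp4 was high in SOX11f/+ replicate 1 and both SOX11f/f libraries, whose choroid plexus genes summed to 11567, 6622 and 208 TPM. Elsewhere these genes summed to 4.71 to 12.1 TPM, and their part in the Bmp4 values was not tested.

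Markers of some other cell types differed along with the lineage genes. Astrocyte genes summed to 1897 and 2125 TPM in the wild type pair and to 2944 to 3885 TPM in floxed libraries, and 5 of 10, Gja1 and Apoe among them, were higher in all 4. Microglial genes summed to 142 and 169 TPM in the wild type pair and 230 to 340 TPM in floxed libraries, with 6 of 8 higher in all 4, Csf1r and C1qa among them. Genes of newborn neurons, such as Dcx, Tubb3 and Stmn2, summed to 4602 and 4856 TPM in the wild type pair and to 3108 to 3816 TPM in floxed libraries. Of these 8, 5 were lower in all 4, Dcx and Tubb3 among them but not Stmn2. Of 10 pericyte, 11 fibroblast, 8 mature neuron and 8 neural progenitor genes, 0 were higher in all 4. In the same order 0, 0, 1 and 2 were lower. The shares of all genes were 13.3% higher and 21.0% lower. The part of these lists in the precursor values was not tested. TPM values share a fixed total, and in bulk tissue more cells of a type and more RNA per cell cannot be told apart.

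Camk2a, a synaptic kinase of mature neurons, stood at 121 and 295 TPM in wild type libraries, 138 and 343 TPM in SOX11f/+, and 266 and 496 TPM in SOX11f/f libraries. In each genotype the library with more Camk2a was also the one with more Mbp. Col1a1, a collagen of fibroblasts and meninges, stood at 21.7 and 9.19 TPM, 12.3 and 14.8 TPM, and 3.36 and 37.9 TPM in the same order, and was also highest in SOX11f/f replicate 2, but in wild type it was lower in the library with more Mbp. The part of either cell type in the Mbp and Mag values was not tested.

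**Figure D5:**
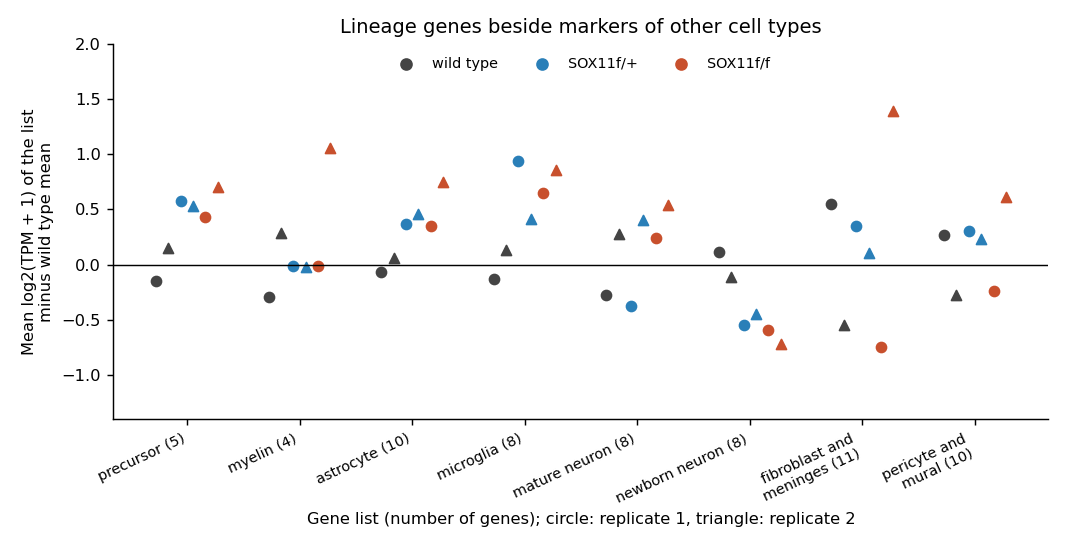
Mean log2(TPM + 1) of each gene list minus its wild type mean (vertical axis) for the lineage genes and for markers of other cell types (horizontal axis), 1 point per library. Precursor, astrocyte and microglial points of all 4 floxed libraries lie above both wild type points, and those of newborn neurons below. SOX11f/f replicate 2 is the highest library for precursor, myelin, astrocyte, mature neuron, fibroblast and pericyte genes.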

How the data were processed

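Oligo(dT)-selected RNA of 6 libraries, 2 per genotype, was sequenced in pairs, per the labels. The authors deposited 1 table of TPM values for 35274 genes with Ensembl identifiers and symbols, in which every library sums to at least 999999. The labels' design text names TopHat 2.0.11, Cufflinks 2.2.1, mm10 and a RefSeq annotation, whereas the submitters' processing notes name FastQC and RSEM with mm10 and GRCm38. No source used here gives the annotation release or the treatment of multi-mapping reads. TPM keeps no read depth, so depth is unknown and no counting interval was computed.

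Values were analysed as log2(TPM + 1). Genes averaging 1 TPM or more over the libraries (14518) entered limma 3.58.1 (R 4.3.3; lmFit, eBayes with trend), with a term per genotype, all 6 libraries, 3 residual degrees of freedom, and p-values adjusted by Benjamini-Hochberg over all genes at 0.05. The lineage genes, the gene lists and the choice of libraries left out were made with earlier results of these data known, so lists are described by counts and medians with no test of their own. Named were all 9 lineage genes, Sox11, the 4 genes of each further list with the smallest unadjusted p in SOX11f/f against wild type, and the 5 genes most correlated with each stage's mean among those with at least 5 TPM, unnamed gene models left out. Others, such as Gpr17, Myrf, Ptprz1, Erbb3, Zfp488, Tnr, Gfap, Cldn11 and Pdgfa, were chosen after their values were seen. Some listed genes are not reported here by name. Positions came from GENCODE vM21 on GRCm38, which matched 34845 of 35274 identifiers without version, near-identical copies from BLAST 2.17.0 (at least 90% over 200 bases) and promoters from RefSeq on GRCm38.p6. Alternatives changed the pseudocount, the filter, the scaling (a trimmed mean of log ratios without count weights), the variance trend, the libraries and a block for replicate number.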

Additional observations from a re-analysis of the deposited data

How the results depend on the processing

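Of 372 values of the lineage genes under alternatives, 351 kept their direction and their side of the threshold, and 15 changed sign. None of those 15 was past the threshold. The remaining values changed side only without the 2 Ttr-rich libraries, where each floxed genotype has 1 library. Over all genes, calls in SOX11f/+ against wild type numbered 5, and 49 with a pseudocount of 0.1, 1 with no filter, 9 with the replicate block and 210 without the 2 Ttr-rich libraries. They ran from 3 (without wild type replicate 1 or 2) through 26 (without SOX11f/+ replicate 1) to 391 (without SOX11f/+ replicate 2). In SOX11f/f against wild type they numbered 6, and 149, 3, 283 and 713 under the same settings and 396 with no SOX11f/+ library. They ran from 3 (without wild type replicate 1) to 393 and 395 (without SOX11f/+ replicate 1 or 2). In SOX11f/f against SOX11f/+ they numbered 2, and 1 with no filter or without trend, 45 without the 2 Ttr-rich libraries, and from 1 (without SOX11f/f replicate 1) to 5 (without SOX11f/f replicate 2). Called lineage genes numbered 0 under every setting that kept a Ttr-rich library, the replicate block included. Without both of these, each floxed genotype has 1 library, and calls of lineage genes are not read. Replicate 1 minus replicate 2 correlated across genes at 0.21 between wild type and SOX11f/+ and -0.09 between wild type and SOX11f/f. Between floxed genotypes the correlation was 0.35. Whether libraries of the same replicate number share a batch was not tested.

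The precursor minus myelin difference was 1.93 in wild type and 2.59 in SOX11f/+ with a pseudocount of 0.1, 1.98 and 2.69 without Pdgfra and Cspg4, and 2.57 in SOX11f/+ with medians. With 1 library of a genotype it ran from 1.51 to 1.78 in wild type, 2.19 to 2.24 in SOX11f/+ and 1.29 to 2.09 in SOX11f/f. The 6 genes above wild type in all floxed libraries became 8 without wild type replicate 2, and the count was 6 after rescaling and without any other library, while 1 gene lay below throughout. These alternatives to the counts were added after seeing the data.

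Signs turned as follows, and the cause was not tested. In SOX11f/+ against wild type, Mbp was 0.17 without the 2 Ttr-rich libraries and ran from -0.83 to 0.47 with 1 library left out, and Mag from -0.36 to 0.27. In SOX11f/f Mbp ran from -0.34 to 1.72. Between floxed genotypes Sox10 was -0.00044 after rescaling and ran from -0.19 to 0.20 with 1 library left out. Olig2 ran from -0.17 to 0.023 and was 0.070 without the 2 Ttr-rich libraries, Pdgfra from -0.40 to 0.26 and 0.30, Mog from -0.39 to 0.15 and 0.17, and Mbp from -0.16 to 1.90. Unknown depth limits Mag and Mog most, the scarcest of the 9.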
